A study of Mus musculus with 12 samples.

Results

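The MiT/TFE family of transcription factors, Tfec, Tfeb, Tfe3 and Mitf, was examined in liver RNA of mice that lack Phgdh in hepatocytes. Phgdh encodes 3-phosphoglycerate dehydrogenase, the first enzyme of serine synthesis from glucose. A probe was taken as a member when its RefSeq accession belonged to 1 of these 4 genes, which gave 6 of the 39429 probes on the array: 1 for Tfec (NM_031198), 1 for Tfeb (NM_001161722), 2 for Tfe3 (NM_172472) and 2 for Mitf (NM_001113198). All 6 probes were well above background on all 12 arrays, and the 4 genes are among 16916 genes tested. Tfec was singled out because its values in the LKO livers did not overlap with those in the Floxed livers and its difference was among the largest of that kind, so its difference between the genotypes is given as a description, with no test. The differences of its 3 paralogs come from the same contrast and are given in the same way.

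Both groups were male C57BL/6 mice, 30 weeks old, on laboratory chow, and all carried conditional Phgdh alleles on both chromosomes. The 6 Floxed mice (Phgdh flox/flox) had no Cre and served as littermate controls of the 6 LKO mice (Alb+/Cre; Phgdh flox/flox), in which Cre is driven by the albumin promoter, so that recombination is restricted to hepatocytes and the other cells of the liver keep the gene. Each array held the RNA of 1 mouse, labeled with cyanine 3. The arrays lay on 3 slides: Floxed mice 1 to 4 were on slide 1, Floxed mice 5 and 6 and LKO mice 1 and 2 on slide 2, and LKO mice 3 to 6 on slide 3, so that genotype and slide can be told apart only on slide 2.

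The 4 factors are basic helix-loop-helix leucine zipper proteins that bind DNA as homodimers or as heterodimers with each other. Tfeb and Tfe3 are held in the cytoplasm when the mTOR kinase complex on the lysosome senses amino acids, and move to the nucleus on starvation, where they activate genes of lysosomes and autophagy. Mitf is best known as the master regulator of melanocytes and as a factor of osteoclasts and mast cells, whereas Tfec in mice is best known from the macrophage lineage. These controls act in large part on the proteins, which arrays of mRNA do not measure.

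The element through which the family acts on lysosomal genes is an E-box, CACGTG, flanked by A, as in the CLEAR element. Sites of this kind are shown for 4 genes whose values are given further on, to make visible what a promoter window of a target gene holds: Lamp1, which encodes an abundant glycoprotein of the lysosomal membrane, Ctsd, the protease cathepsin D, Mcoln1, the lysosomal calcium channel, and Rragc, a GTPase that brings the mTOR complex to the lysosome. The sequences are from RefSeq (assembly GRCm38.p6), are written 5′ to 3′ on the strand named, and have CACGTGA in capitals.
Lamp1 (chr8:13159105-13159133, plus strand): ggtccagcgccCACGTGAtgccgactggc
Ctsd (chr7:142387908-142387936, minus strand): cgcccgcgtctCACGTGAcccgttgaggg
Mcoln1 (chr8:3500463-3500491, plus strand): ggcgccccgctCACGTGAccgcggcgcat
Rragc (chr4:123917310-123917338, plus strand): gtgattccgggCACGTGAtagtaccactt
The first capital of these sites lay at position -45 relative to the transcription start of Lamp1, at -98 for Ctsd, at -45 for Mcoln1 and at -112 for Rragc.

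CACGTGA was searched on both strands in RefSeq promoter windows of 300 bases, which run from 250 bases before a transcription start to 50 bases after it. It was present in the windows of 1160 of 27025 genes, or 4.29%. Among lysosome and autophagy genes, a list that joins lysosomal hydrolases, lysosomal membrane proteins, the vacuolar ATPase and autophagy proteins, 30 of the 129 genes with a window held it, or 23.3%. The share was 10 of 31 for lysosomal membrane proteins, 10 of 43 for hydrolases, 4 of 16 for the vacuolar ATPase and 6 of 39 for autophagy. It was also found for 6 of 39 genes that control the family by nutrients. The 6-base core CACGTG, which overlaps with it, was present for 8.09% of all genes. TCATGTG, the form of the element known from melanocyte genes, was present for 4.31% of all genes and for 6 of 14 melanocyte and osteoclast targets of Mitf, none of which held CACGTGA. Many of the listed hydrolases were known to have a CLEAR element, and the Mitf targets include melanocyte genes. The shares of these lists and of the joined list follow in part from that choice.

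**Figure D1:**
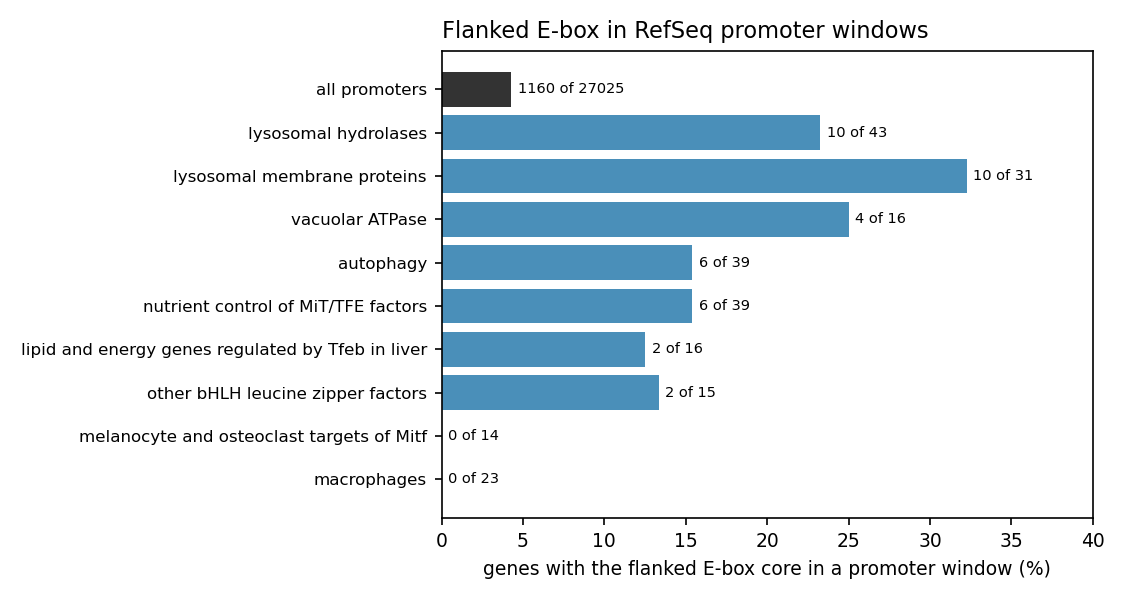
Share of genes (%, horizontal axis) with the flanked E-box in at least 1 RefSeq promoter window, for all genes (black) and for each gene list (blue), with the number of genes beside each bar. The share is 4.29% over all genes, and is higher in each list of lysosome and autophagy genes. None of the 23 macrophage markers and none of the 14 Mitf targets with a window holds it. Lists of this size can hold none at a share of 4.29%.

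None of the RefSeq windows of the 4 factors themselves, which numbered 1 for Tfec, 3 for Tfeb, 2 for Tfe3 and 3 for Mitf, held CACGTG or TCATGTG. The window of Tfec is shown because Tfec is the member with separated groups. It lies at chr6:16898392-16898691 on the minus strand, and 40.3% of its bases are G or C, against a median of 52.7% over 32851 windows. The capitals mark AGGAAGT, letters of the kind recognized by Ets factors such as PU.1, the factor of the myeloid lineage encoded by Spi1. This motif was chosen after the window had been seen.
Tfec: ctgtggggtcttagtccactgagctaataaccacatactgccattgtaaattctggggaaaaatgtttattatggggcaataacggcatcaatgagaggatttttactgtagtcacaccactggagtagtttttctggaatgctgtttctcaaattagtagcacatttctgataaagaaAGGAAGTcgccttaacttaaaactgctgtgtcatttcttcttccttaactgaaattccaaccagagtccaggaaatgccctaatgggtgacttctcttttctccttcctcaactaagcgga
On either strand, AGGAAGT was present for 2886 of 27025 genes. Among genes with a window, 7 of 23 macrophage, 4 of 9 lymphocyte and 4 of 10 neutrophil and mast cell markers held it. So did 2 of 5 cholangiocyte, 1 of 5 blood and 1 of 12 pancreas acinar cell markers. None of 9 hepatocyte, 7 sinusoidal endothelium and 9 stellate cell markers or of 14 Mitf targets did. AGGAAGT occurred for 6 of 31 lysosomal membrane proteins, 5 of 43 hydrolases, 1 of 16 vacuolar ATPase and 1 of 39 autophagy genes. It was present for 2 of 39 genes that control the family by nutrients and 1 of 16 liver genes regulated by Tfeb. The count was 1 of 15 for other basic helix-loop-helix leucine zipper factors. It was also found in 1 of the windows of Tfe3. These matches describe letters in these windows only.

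Phgdh was inspected first as the check of the labels. Its log2 intensity was 4.81 to 5.50 in the Floxed livers and 4.23 to 5.30 in the LKO livers, a difference of -0.48. LKO 1 and 2, at 5.07 and 5.30, lay inside the Floxed range, and on slide 2 alone the difference was -0.055. Whether the probe lies in the deleted exons is not given in the sources used here.

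Tfec was lower in every LKO liver than in any Floxed liver. Its log2 intensity after quantile normalization was 4.82 at the lowest, 5.06 at the median and 5.24 at the highest in the Floxed livers, and 3.69, 4.52 and 4.78 in the LKO livers. The 2 groups therefore did not overlap, but they were separated by 0.032 only, between Floxed 5 and LKO 1, which shared slide 2. The means were 5.04 ± 0.17 (SD, n = 6) and 4.43 ± 0.39 (SD, n = 6), a difference of -0.61 ± 0.17 (SE), or 0.655 times the Floxed intensity. Among 15 genes that were lower in LKO without overlap, 0.0887% of all tested, this was the 5th largest difference. Slc11a2, which encodes an iron transporter, came just after it with -0.57, and a transcript known by the identifier TC1584441 just before it with -0.64. In whole liver, fewer cells of a type that expresses Tfec and less Tfec mRNA per cell cannot be told apart.

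The size of the Tfec difference varied with the array and the slide. LKO 3 had the lowest value, 3.69, while the other LKO livers ranged from 4.39 to 4.78; without LKO 3 the difference was -0.46. On slide 2, Floxed 5 and 6 read 4.82 and 5.15 and LKO 1 and 2 read 4.78 and 4.65, a difference of -0.27. Between the LKO livers of slide 3 and those of slide 2 the difference was -0.43, and between the Floxed livers of slide 2 and those of slide 1 it was -0.079.

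The Tfec signal was dim. Before normalization, the background-subtracted scanner intensity was 20.0 to 41.5 in the Floxed livers and 14.1 to 29.5 in the LKO livers, so that the groups overlapped. Scaling each array to its 75th percentile kept the groups apart, by 0.025, with a difference of -0.47. With the normexp background correction and its offset of 50, which is above every Tfec intensity, the difference was -0.17 and the SD within the groups 0.095, against 0.30 for the values above. A pair of further settings, chosen after seeing these values, took the correction and the offset apart. With normexp and no offset the difference was -0.42, and with the offset added to the processed intensity it was -0.21. The groups stayed apart with the offset alone, whereas with normexp, with or without the offset, 4 of 6 LKO livers were below all Floxed livers.

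**Figure D2:**
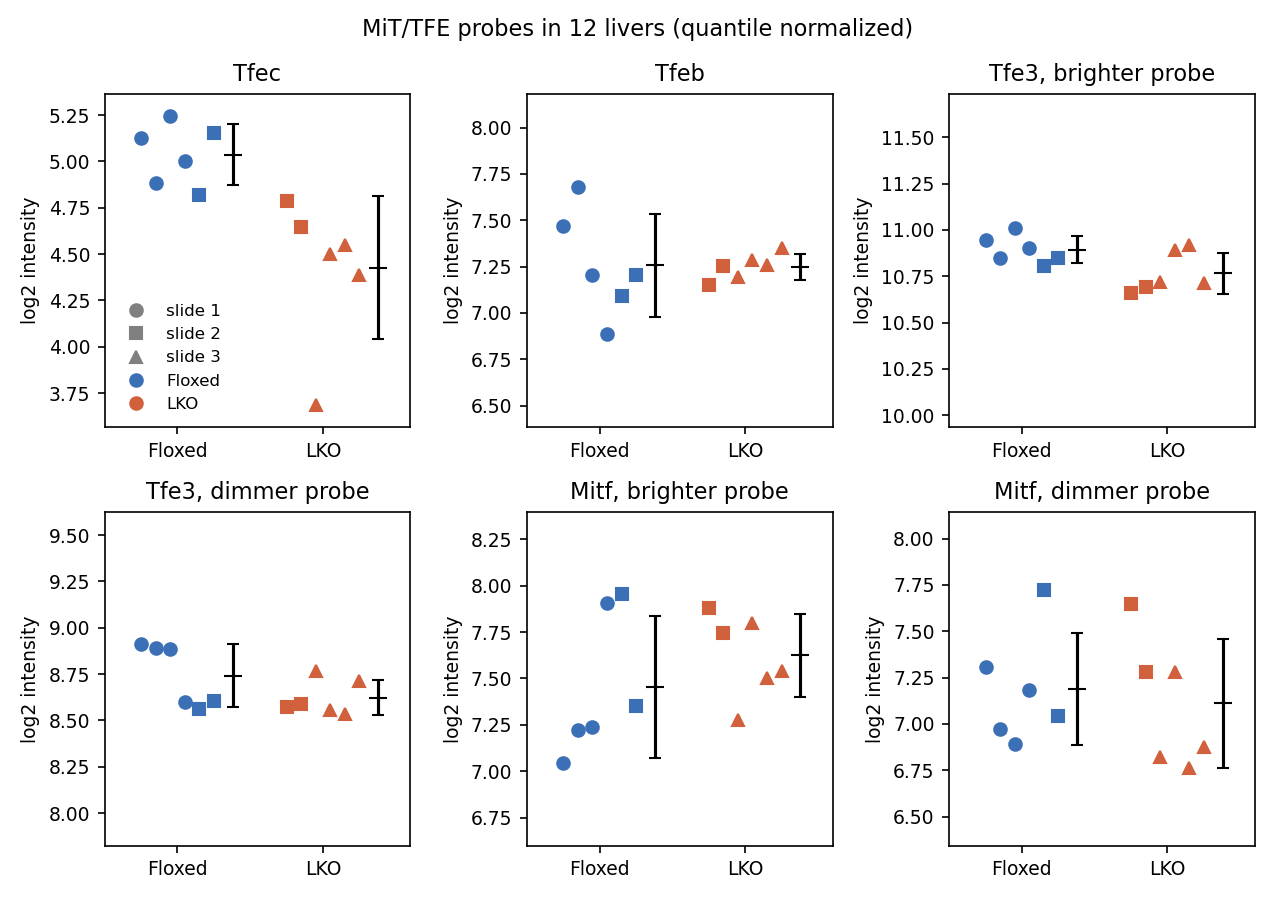
Log2 intensity (vertical axis, each panel spans the same range of log2 units) of the 6 MiT/TFE probes in each liver, with the slide given by the symbol, and the mean with its SD (n = 6) in black. The Tfec values of LKO livers all lie below those of Floxed livers, with LKO 3 at 3.69, and the groups overlap for every probe of Tfeb, Tfe3 and Mitf. The separation for Tfec follows from its choice, and 0.296% of all genes tested had groups without overlap.

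Tfeb, the main activator of lysosome genes in the family, had nearly the same mean in both groups. Its log2 intensity was 6.89 at the lowest, 7.21 at the median and 7.68 at the highest in Floxed livers, and 7.15, 7.26 and 7.35 in LKO livers. All LKO values lay within the Floxed range. The means were 7.26 ± 0.28 (SD, n = 6) and 7.25 ± 0.070 (SD, n = 6), with a difference of -0.0078 ± 0.12 (SE), and on slide 2 the difference was 0.054.

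Tfe3, which acts with Tfeb in the response to nutrients, was measured by 2 probes with like differences. The brighter probe read 10.81 at the lowest, 10.88 at the median and 11.01 at the highest in Floxed livers, and 10.66, 10.72 and 10.92 in LKO livers. For this probe, 4 of 6 LKO livers were below all Floxed livers, and LKO 4 and 5 lay within the Floxed range. Its difference was -0.13 ± 0.054 (SE), and -0.15 on slide 2. The dimmer probe read 8.56, 8.74 and 8.91 in Floxed livers and 8.54, 8.58 and 8.77 in LKO livers, with a difference of -0.12 ± 0.079 (SE). On slide 2, the difference of the dimmer probe was -0.0027. Over the 12 arrays the 2 probes correlated with r = 0.34.

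Mitf, the factor of melanocytes and osteoclasts, gave differences of opposite sign with its 2 probes. The brighter probe read 7.04 at the lowest, 7.29 at the median and 7.95 at the highest in Floxed livers, and 7.28, 7.64 and 7.88 in LKO livers, all of which lay within the Floxed range. Its difference was 0.17 ± 0.18 (SE). The dimmer probe read 6.89, 7.11 and 7.72 in Floxed livers and 6.76, 7.08 and 7.65 in LKO livers, a difference of -0.076 ± 0.19 (SE). Both differences were smaller than their SE, and the probes correlated with r = 0.61 over the 12 arrays.

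The Tfec difference was of similar size when Tfec was expressed relative to its paralogs on the same array. Relative to the mean of Tfeb, Tfe3 and Mitf, each by its brighter probe, Tfec differed by -0.62 between LKO and Floxed on the log2 scale. In this measure 5 of 6 LKO livers were below all Floxed livers, the exception being LKO 1. Taken singly, the difference was -0.60 relative to Tfeb, -0.48 relative to Tfe3 and -0.78 relative to Mitf, and the number of LKO livers below all Floxed livers was 2, 5 and 3, respectively. On slide 2 the difference relative to the mean of the paralogs was -0.29. Since Tfec was chosen for its difference, these values have no test.

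**Figure D3:**
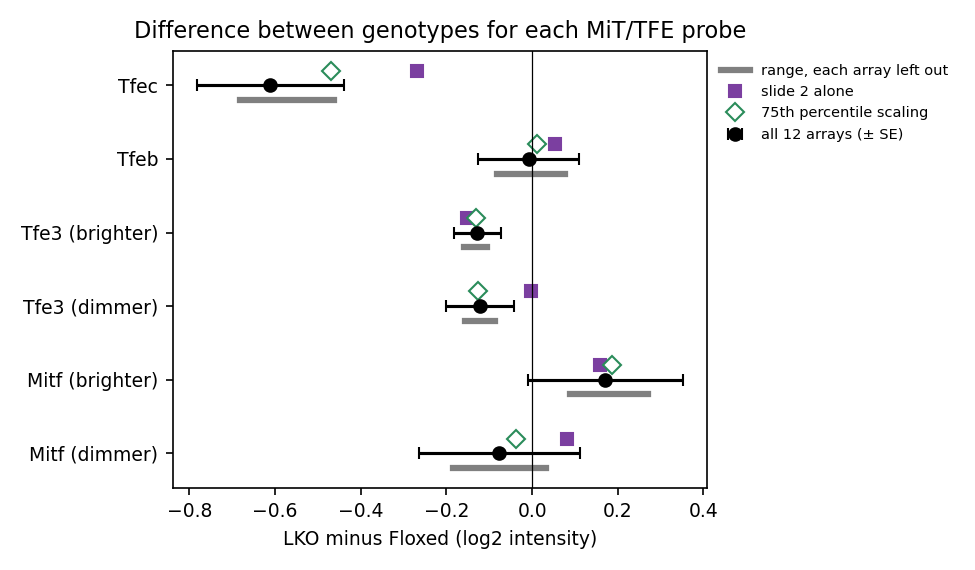
Difference between LKO and Floxed livers (log2 intensity, horizontal axis) for each MiT/TFE probe, with its SE over all 12 arrays (black), the range when each array is left out in turn (grey), slide 2 alone (purple squares, 2 arrays per group) and 75th percentile scaling (green diamonds). Tfec, which was chosen for its difference, stands at -0.61, and at -0.27 on slide 2. The probes of the other factors, which were not chosen in this way, stand between -0.13 and 0.17.

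Across the 12 livers, the r of Tfec was 0.0099 with Tfeb, -0.083 with Mitf and 0.56 with Tfe3. Without LKO 3, r was -0.10 with Tfeb, -0.47 with Mitf and 0.53 with Tfe3. These values hold the difference between the groups. For deviations from the mean of each genotype, r was -0.0086 with Tfeb, 0.22 with Tfe3 and 0.21 with Mitf. The tested genes whose values were most like those of Tfec were Adamts1, a secreted metalloproteinase (r = 0.92), Jag1, a Notch ligand (r = 0.91), Dmtf1, a transcription factor (r = 0.90), Lnpep, an aminopeptidase (r = 0.87), and Ppp4r2, a phosphatase subunit (r = 0.86). All 5 were lower in LKO on average, by -0.36 to -0.57, and all 5 had their lowest value on LKO 3, as Tfec had. Both traits largely follow from the choice of these genes for a high r with Tfec. Without LKO 3, r ranged from 0.63 for Lnpep to 0.85 for Ppp4r2.

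The genes most opposed to Tfec were Stxbp4 (r = -0.93), Pxdn (r = -0.92), Olfr128 (r = -0.92), Traf1 (r = -0.92) and Adora2b (r = -0.92). Their differences between LKO and Floxed were 0.34, 0.45, 0.58, 0.49 and 0.60, with signs that largely follow from the choice by r. For deviations from genotype means, the genes most like Tfec were Adamts1 (r = 0.86), Trip13 (r = 0.86), Strn (r = 0.86), Wdr5b (r = 0.86) and Pdik1l (r = 0.86). Each of these also had its lowest value on LKO 3. Over the 11 other arrays, r was taken of the log2 intensity, without removing genotype means. This r was 0.85 for Adamts1, -0.043 for Trip13, 0.72 for Strn, 0.45 for Wdr5b and 0.23 for Pdik1l. All these correlations are descriptions over arrays that share slides and a single normalization, with the highest and lowest values picked from all genes tested.

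Few genes of lysosomes and autophagy, the known targets of the family, were called in the fit without slide. With limma, 1413 of 16916 genes (8.35%) had an unadjusted p below 0.05, 832 (4.92%) higher and 581 (3.43%) lower in LKO. No gene passed after Benjamini-Hochberg adjustment, where the smallest adjusted p was 0.13. Of 155 tested lysosome and autophagy genes, 3 were called, 2 higher and 1 lower. Their differences were higher for 70 and lower for 85, with a median of -0.014 on the log2 scale, against -0.0035 over all genes. None had groups without overlap, which 50 genes (0.296%) had over all tested.

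Among lysosomal hydrolases, 0 of 55 tested were called by limma at an unadjusted p below 0.05, against 8.35% of all genes. The differences of the hydrolases ranged from -0.23 to 0.22, with 28 higher and 27 lower. Ctsd differed by 0.11 ± 0.13 (SE). Among 34 membrane proteins, Mcoln3, a lysosomal and endosomal calcium channel, was the 1 gene called: it rose by 0.42 ± 0.13 (SE; limma with Benjamini-Hochberg, adjusted p = 0.37) and was above the Floxed mean in 6 of 6 LKO livers. Its log2 intensity was 5.51 at the median and 5.77 at the highest in Floxed livers, and it was 5.67 at the lowest, 5.90 at the median and 6.16 at the highest in LKO livers, so that the groups overlapped. On slide 2 the difference was 0.13. Its relative Mcoln1 differed by -0.062 ± 0.076 (SE) and Lamp1 by 0.025 ± 0.10 (SE).

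Of 19 subunits and accessory proteins of the vacuolar ATPase, the pump that acidifies the lysosome, Atp6v0d1 was called. It fell by 0.20 ± 0.079 (SE; limma with Benjamini-Hochberg, adjusted p = 0.50), was below the Floxed mean in 6 of 6 LKO livers, and differed by -0.17 on slide 2. Of 47 autophagy genes, Vps39, a subunit of the HOPS complex that tethers vesicles to the lysosome, was called. It rose by 0.68 ± 0.19 (SE; limma with Benjamini-Hochberg, adjusted p = 0.33) and was above the Floxed mean in 5 of 6 LKO livers. Its log2 intensity was 6.13 at the lowest, 6.46 at the median and 6.52 at the highest in Floxed livers and 6.29, 7.20 and 7.52 in LKO livers. On slide 2, however, the difference of Vps39 was -0.041. Sqstm1, the cargo receptor p62, differed by -0.054 ± 0.10 (SE).

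The slide changed which of these genes were called. With slide as a fixed block, which rests on the 2 Floxed and 2 LKO arrays of slide 2 for the genotype, 317 genes (1.87%) were called. The lysosome and autophagy genes among them were Mcoln1, Ulk1 and Map1lc3a in place of Mcoln3, Atp6v0d1 and Vps39. In that fit, 3 of 155 tested lysosome and autophagy genes were called, close to the share over all genes. On slide 2, Mcoln1 differed by -0.27, Ulk1, the kinase that starts autophagy, by -0.54, and Map1lc3a, a protein of the autophagosome membrane, by 0.53. With 75th percentile scaling, 1443 genes (8.53%) were called, 1127 higher and 316 lower, so that 78.1% of called genes were higher against 58.9% with quantile normalization. Under this scaling Abcb9 and Ctsb were called in addition to the 3 genes named.

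**Figure D4:**
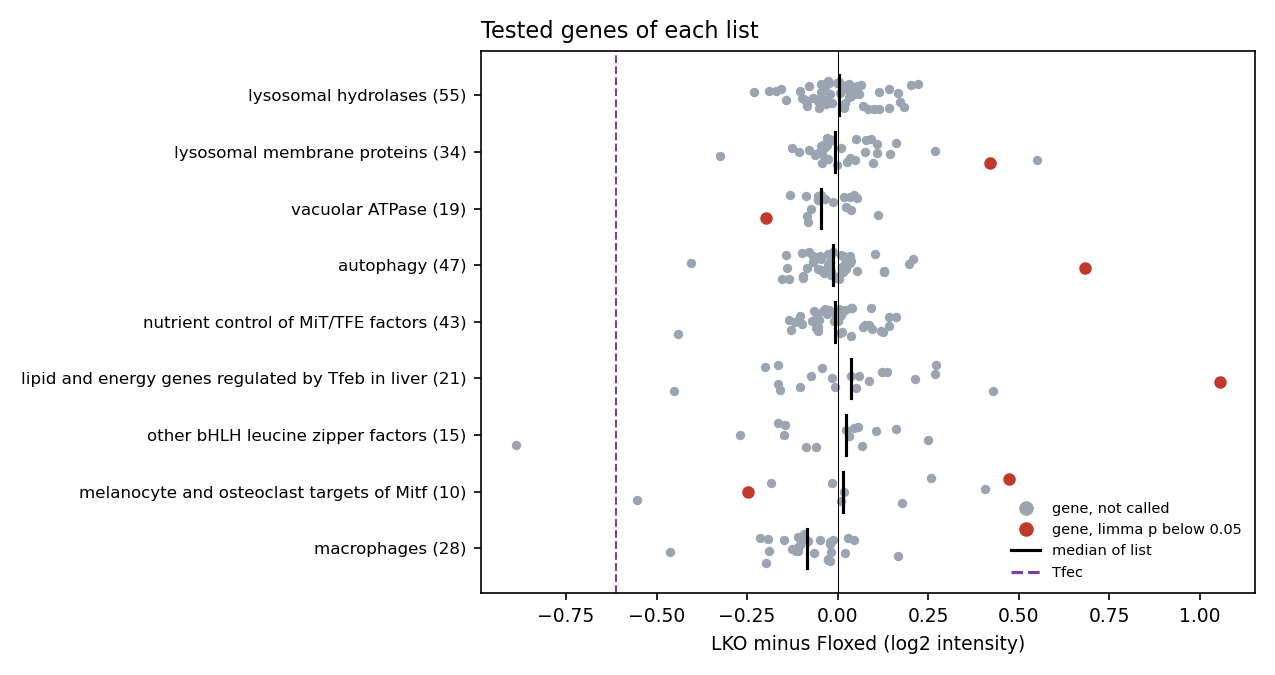
Difference between LKO and Floxed livers (log2 intensity, horizontal axis) for each tested gene of 9 lists, with the number tested in parentheses, called genes in red, the median of each list as a black bar and Tfec as a dashed line at -0.61. Medians lie close to 0 in every list of known targets, and the macrophage markers have a median of -0.086.

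Genes with and without the flanked E-box had like medians. The 30 tested lysosome and autophagy genes with CACGTGA in a window had a median difference of -0.020, with 14 of 30 higher and 1 called. The 92 tested genes with windows but without it had a median difference of -0.0098, with 43 higher and 1 called.

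The machinery that controls the family by nutrients was examined with 43 tested genes of the mTOR complex, its lysosomal anchors, amino acid sensors, calcineurin and the proteins that retain Tfeb in the cytoplasm. None was called by limma at an unadjusted p below 0.05, against 8.35% of all genes tested. The median difference of the 43 was -0.0068, with 21 higher and 22 lower. Mtor, the kinase itself, differed by -0.10 ± 0.11 (SE). Rragc differed by -0.055 ± 0.14 (SE), and Flcn, the GTPase-activating protein of Rragc, by -0.060 ± 0.14 (SE). Rragd, which is also a target of the family, was not well above background on any Floxed array and was so on 1 LKO array.

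Of 21 liver genes of lipid and energy metabolism that are regulated by Tfeb, only Pdk4 was called, against 8.35% of all genes tested. Pdk4 encodes a kinase that inhibits pyruvate dehydrogenase, and is also a target of PPARα. It rose by 1.05 ± 0.27 (SE; limma with Benjamini-Hochberg, adjusted p = 0.28), was above the Floxed mean in 6 of 6 LKO livers, and differed by 1.87 on slide 2. Its log2 intensity was 7.13 at the lowest, 7.39 at the median and 8.13 at the highest in Floxed livers and 7.80, 8.56 and 9.20 in LKO livers. Ppargc1a, the coactivator through which Tfeb acts on lipid catabolism, differed by -0.17 ± 0.20 (SE). The list had a median of 0.038, with 11 genes higher and 10 lower.

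Of 15 other basic helix-loop-helix leucine zipper factors, none was called by limma at an unadjusted p below 0.05, against 8.35% of all genes. The median difference of the 15 was 0.022. The widest was that of Myc, -0.89 ± 0.52 (SE), a gene named here after its value had been seen. Of 10 tested melanocyte and osteoclast targets of Mitf, Ocstamp, a membrane protein of osteoclast fusion, rose by 0.47 ± 0.13 (SE; limma with Benjamini-Hochberg, adjusted p = 0.32; above the Floxed mean in 6 of 6 LKO livers). On slide 2, Ocstamp differed by 0.028. Ctsk, the protease of osteoclasts, fell by 0.25 ± 0.095 (SE; limma with Benjamini-Hochberg, adjusted p = 0.48; below the Floxed mean in 5 of 6 LKO livers), by -0.11 on slide 2, and was called neither under 75th percentile scaling nor with the replicate number as a block. The other 11 targets on the array, among them Mlana and Tyrp1 of melanocytes, were not well above background on all arrays.

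Among markers of macrophages, the lineage in which Tfec is best known, the widest difference was -0.46. Tfec was chosen for the size of its difference, so that its size cannot be weighed against those of the markers. None of the 28 tested markers was called by limma at an unadjusted p below 0.05, against 8.35% of all genes tested. Of the 28, 24 were lower and 4 higher in LKO, with a median of -0.086. Csf1r, the receptor of macrophage colony stimulating factor, differed by -0.091 ± 0.17 (SE), Adgre1, a surface receptor of mature macrophages, by -0.10 ± 0.27 (SE), Clec4f of Kupffer cells by -0.022 ± 0.12 (SE) and Lyz2, lysozyme, by 0.020 ± 0.29 (SE). Spi1 was well above background on 2 Floxed arrays and no LKO array, and Cd68 had no matched probe. On slide 2, with 2 arrays per group, the median difference of the markers was 0.12.

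The summed intensity of the 28 markers was 42206 to 77544 in Floxed livers and 36098 to 66122 in LKO livers, and the groups overlapped. The mean deviation of the markers from their averages over the arrays was -0.25 to 0.48 in Floxed livers and -0.46 to 0.26 in LKO livers. Over the 12 arrays it correlated with Tfec with r = 0.33, and with r = 0.31 for deviations from genotype means. LKO 3, the liver with the lowest Tfec, had a mean deviation of -0.095, within the Floxed range. The part of macrophages in the Tfec difference was not tested.

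**Figure D5:**
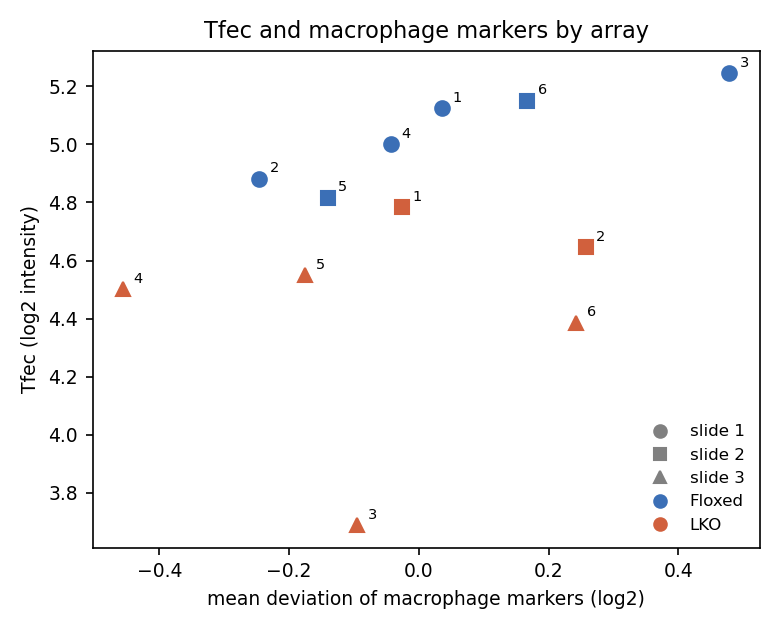
Tfec log2 intensity (vertical axis) against the mean deviation of 28 macrophage markers from their averages (log2, horizontal axis) in each liver, with mouse numbers beside the points, genotype by color and slide by symbol. The marker values of the genotypes overlap, and LKO 3, with the lowest Tfec, has a mean deviation of -0.095. The separation of the genotypes on the vertical axis follows from the choice of Tfec.

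Markers of the other cells of the sample were taken along in the same way. Over all genes tested, 8.35% were called by limma at an unadjusted p below 0.05. None of 12 hepatocyte, 10 lymphocyte, 12 stellate cell, 5 blood, and 5 neutrophil and mast cell markers was called. The last include Csf3r, which differed by 0.019 ± 0.12 (SE). Of 12 markers of sinusoidal endothelium, Pecam1 rose by 0.70 ± 0.17 (SE; limma with Benjamini-Hochberg, adjusted p = 0.27; above the Floxed mean in 6 of 6 LKO livers), with 0.042 on slide 2, and Flt4 fell by 0.42 ± 0.092 (SE; limma with Benjamini-Hochberg, adjusted p = 0.26; below the Floxed mean in 6 of 6 LKO livers), with -0.40 on slide 2. Of 4 cholangiocyte markers, Cftr fell by 0.83 ± 0.38 (SE; limma with Benjamini-Hochberg, adjusted p = 0.59; below the Floxed mean in 5 of 6 LKO livers), with -1.49 on slide 2.

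Of 16 markers of pancreas acinar cells 5 could be tested, and Cel, carboxyl ester lipase, rose by 0.54 ± 0.13 (SE; limma with Benjamini-Hochberg, adjusted p = 0.27; above the Floxed mean in 6 of 6 LKO livers), with 0.27 on slide 2. The median of the 5 was 0.16, their summed intensity was 1384 to 2326 in Floxed and 1704 to 2453 in LKO livers, and their mean deviation correlated with Tfec with r = -0.67 over the 12 arrays. For deviations from genotype means r was -0.59. For the stellate cell markers r was 0.52 over the 12 arrays and 0.65 for deviations. These lists had the values largest in size among all cell type lists. In the other lists, r over the 12 arrays ranged from -0.32 (sinusoidal endothelium) to 0.33 (macrophages). For deviations it ranged from -0.39 to 0.31 in the same lists. The part of any of these cell types in the Tfec difference was not tested.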

How the data were processed

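Total RNA of 12 livers was labeled with cyanine 3 and hybridized to 1-color Agilent arrays, 1 mouse per array. Per the file headers, the authors deposited spot intensity values from Feature Extraction (version 10.7.1.1; 9.5.1.1 in the submitters' notes), with background subtracted before any normalization between arrays, and a table of quantile-normalized intensity per probe. The labels and the methods name different RNA kits.

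Groups came from sample titles. Control spots (1377 per array) were left out. Log2 values of the processed signal of 43020 spots were brought to a common distribution by quantile normalization, outlier spots (0.298%) were set missing, and spots of a probe were averaged. Probes well above background (in at least 0.5 of their spots) on all 12 arrays were kept, 20404 in number, with the brightest probe per gene: 16916 genes. The detection p-value filter of the methods was replaced by this mark. The arrays held 21614 to 24252 probes well above background, and their number limits the precision. Genes were named through a RefSeq table of assembly GRCm38.p6, which matched 26761 of 28389 probes with an accession. Genotypes were compared with limma (version 3.58.1, R 4.3.3) without covariates. As in the study's array methods, genes with an unadjusted p below 0.05 were called. Code was tested on simulated data.

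The members, gene lists and tests were chosen with earlier results of these data known. Named genes were the 4 members, Phgdh, called genes of each list, a fixed set of references, and genes whose values were most and least like those of Tfec. Correlations are Pearson's r. Alternatives covered scaling, background correction (normexp with an offset of 50, and the correction and the offset each alone), the authors' table, outlier spots, the filter, the choice of probe, the threshold, the methods' t-test, slide, replicate number and each array left out.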

Additional observations from a re-analysis of the deposited data

Results flagged for a closer look

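The Tfec value of LKO 3, 3.69, stood apart from those of the other 5 LKO livers, which ranged from 4.39 to 4.78. Its gap to the nearest value was 0.637 of the range of the group, above the critical value of Dixon's test for 6 samples. It was the only one among 20 sets of values checked, about the number that chance gives (1 in 20).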

How the results depend on the processing

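Tfec was chosen for groups without overlap, so its difference could not change sign on slide 2 alone or with an array left out. The Tfec difference of -0.61 kept its sign under all alternatives run. It was -0.17 with normexp and its offset of 50, -0.21 with that offset alone, and -0.27 with slide as a fixed block or slide 2 alone, and it ranged from -0.68 to -0.46 with each array left out. Relative to the mean of the paralogs it was -0.16 with normexp, -0.21 with the offset alone, -0.29 with slide as a fixed block or slide 2 alone, and -0.69 to -0.51 with each array left out. The count of called genes was 317 with slide as a fixed block, 2791 without the filter on dim probes, 88 when a log2 change of 1 or more in size was asked for too, 0 after Benjamini-Hochberg adjustment with limma, and 1103 to 1838 with each array left out. For lysosome and autophagy genes the count of 3 became 5 with 75th percentile scaling, with slide as a random block, with the methods' t-test, with the offset alone and with normexp without it, 6 with normexp and without the filter, 0 with Benjamini-Hochberg adjustment or the fold threshold, and 2 (without Floxed 3) to 6 (without Floxed 1) with each array left out. It was 5 without Floxed 5, LKO 1, LKO 3 or LKO 6. For nutrient control the count of 0 became 1 with slide as a fixed block (Fnip2) and 2 when every kept probe was counted (Seh1l and Ywhaz). For macrophage markers it became 1 without the filter (Cd163). The cause of these changes was not tested, other than the offset for Tfec and more genes or fewer arrays entering a fit. Normexp without the offset and the offset alone were chosen after seeing the data.

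The mice of the 2 genotypes share replicate numbers, and mice of the same number carry neighboring animal numbers in the labels, which call the controls littermates without saying that a number marks a litter. The correlations of their deviations ranged from -0.24 to 0.32. With the replicate number as a block, 1428 genes were called (720 higher and 708 lower), 4 of them lysosome and autophagy genes, and only mouse 4 correlated best with its own number. Of the called genes named in the lists, Ctsk was no longer called under the block, and Atg101, Apob and Ms4a1 were called in addition.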
